A study of Homo sapiens with 4 samples.

Results

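The 6 mismatch repair genes MSH6, MSH3, PMS2, PMS1, MLH3 and EXO1 were followed in HCT116 cells with and without a knockdown of ARID1A. They were chosen by name, as genes of the pathway, and each matches 1 of the 60766 features in the tables. The rule uses no measured value, but earlier results of these data were known when it was written. HCT116 is an established human colon carcinoma line. The series holds 2 libraries labelled control and 2 labelled shARID1A, in which a short hairpin RNA targets ARID1A. The ARID1A protein is part of SWI/SNF remodellers, which move nucleosomes. Per its design text, the series was made to relate ARID1A to immune functions. The labels give neither the hairpin used in control cells nor whether the cells were a clone or a pool, and both groups share the same line and the same RPMI1640 medium. Nothing says that the replicates were separate cultures, so p-values measure only the spread between these libraries, which may be technical.

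Mismatch repair removes base mispairs and small insertion or deletion loops left by DNA polymerases. MutS heterodimers recognise the error: MSH6 and MSH3 each join the same common subunit, MSH6 for mispairs and short loops and MSH3 for larger loops. MutL heterodimers act next: PMS2, PMS1 and MLH3 share another common subunit, PMS2 carries the endonuclease activity of the main MutL complex, MLH3 acts mostly in meiotic crossing over, and the role of PMS1 is less clear. EXO1 is the exonuclease that then removes the nicked strand. Loss of the pathway in colon cancer leaves short repeats unstable, a state called microsatellite instability, and HCT116 is a standard line with that state. ARID1A protein has itself been reported to interact with mismatch repair proteins. The common subunits are not analysed here.

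Repeats inside the genes themselves are shown first, because coding runs of 1 base are the sequences that microsatellite instability alters, and mismatch repair genes are among those known to be hit. In the longest coding transcript of each gene in GENCODE release 29 (GRCh38), the longest such run was 9 bases in MLH3, 8 in MSH3, MSH6 and PMS2 and 7 in PMS1 and EXO1. A run of at least 8 bases was present in 4 of the 6 genes and in 5.94% of 19482 coding genes. Among the 2381 genes with coding lengths from 2541 to 4362 bases, the range of the 6 genes, the share was 12.1%. The 4 runs are written below 5′ to 3′ on the coding strand, with the run in capitals and 11 bases on each side, all exonic and coding. They come from the reference and say nothing of the alleles that HCT116 carries.
MLH3, chr14:75047890-75047920, minus strand, exon 2 of 13: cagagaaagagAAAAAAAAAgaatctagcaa
MSH3, chr5:80675085-80675114, plus strand, exon 7 of 24: atgttagggacAAAAAAAAgggcaacattt
MSH6, chr2:47803490-47803519, plus strand, exon 5 of 10: gccggaagataCCCCCCCCttcttagagct
PMS2, chr7:5987515-5987544, minus strand, exon 11 of 15: gactggagaagAAAAAAAAgacgtgtccat

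Expression was read as FPKM, fragments scaled by transcript length and by the size of the library. Features with a mean of at least 1 FPKM over the 4 libraries were tested (13605), and log2 changes are knockdown minus control of log2(FPKM + 1). That scale understates the change of low genes, above all of MSH3. A gene is called where the Benjamini-Hochberg adjusted p of limma, over all tested features, is under 0.05. Normalizing totals estimated from the steps between low values were 69000000 and 71000000 fragments in control cells and 75750000 and 75250000 in knockdown cells. Over its coding length alone, MSH3 then rested on about 231 to 290 fragments a library, a counting error of 5.9% to 6.6%, and the other 5 genes on 1040 to 5010. ARID1A was at 11.1 and 11.4 FPKM in control cells and at 7.05 and 6.13 in knockdown cells, 0.587 times the control mean. Its log2 change was -0.69 (SE 0.077; limma adjusted p = 0.00438). Keratin genes KRT8, KRT18 and KRT19 were at 830.4 FPKM or above in every library, and the colon marker CDX2 was at 10.9 to 14.8, while CDX1 was listed at 0 and VIL1, CEACAM5 and LGR5 stayed at 0.2075 or below. Among the colon markers tested, KRT8, KRT18, KRT19 and KRT20 rose and EPCAM fell. The leukocyte genes PTPRC, CD3E and TYROBP were at 0.00592 FPKM or below in every library. Summed over 13 markers of leukocytes, fibroblasts and endothelium, the level was 11.8 and 9.43 FPKM in control cells against 9.18 and 9.98 after knockdown. Of the 2 tested, CD68 fell and COL1A1 did not pass. The count called was 1 higher and 0 lower without control replicate 1 and 0 in both directions without knockdown replicate 1. The part of these shifts in the results below was not tested.

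Of the 6 mismatch repair genes, PMS1 rose and MSH6 fell in the knockdown, and PMS2, MLH3, MSH3 and EXO1 did not pass the test. All 6 were tested. The largest absolute log2 change was 0.26 and the median 0.19, beside a median of 0.18 over all tested features and 0.36 over those called. The signed median was -0.09 beside -0.003 over all tested features. Across all tested features 37.1% were called, 18.2% higher and 18.9% lower, so 2 called of 6 is near the background. Groups did not overlap for 5 of the 6 genes, where 72.3% of all tested features show the same. With 2 libraries against 2, an exact two-sided permutation test cannot give a p below 0.333, which is the value for each of those 5 genes. In bulk RNA, fewer cells in a state and less RNA per cell cannot be told apart.

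**Figure D1:**
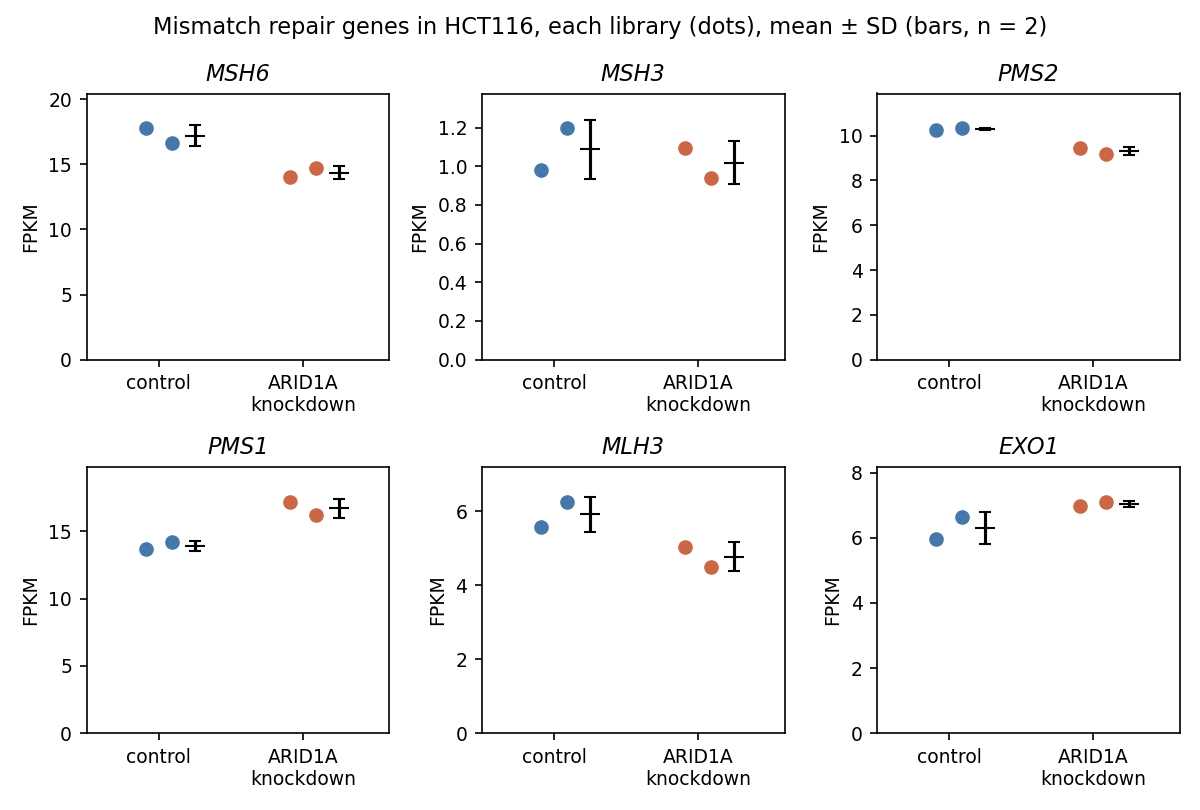
FPKM of the 6 mismatch repair genes (vertical axes from 0) in each control (blue) and ARID1A knockdown (orange) library, with the mean and SD of 2 libraries as bars. The groups are apart for every gene except MSH3, whose 4 libraries lie between 0.940 and 1.20 FPKM.

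**Figure D2:**
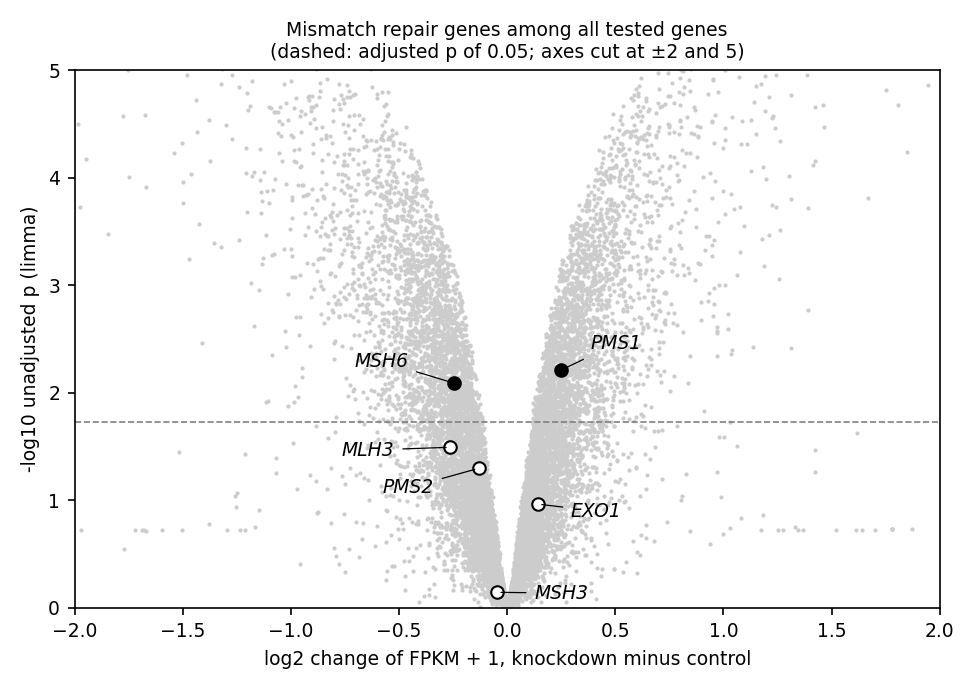
Log2 change (horizontal axis) against -log10 of the unadjusted limma p (vertical axis) for the tested features in grey, with 204 features beyond the axes, and the 6 mismatch repair genes as circles, filled where called. PMS1 and MSH6 lie above the dashed line of adjusted p = 0.05 and the other 4 genes below it, all of them in the dense middle of the features.

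The MutS genes come first. MSH6, on chromosome 2 (47695530 to 47810101, GRCh38), was at 17.8 and 16.7 FPKM in control cells and at 14.02 and 14.7 in knockdown cells. Both knockdown libraries were below both controls. Its mean went from 17.2 ± 0.796 to 14.4 ± 0.497 FPKM (SD, n = 2), 0.835 times the control mean, with a log2 change of -0.24 (SE 0.056, 95% interval -0.39 to -0.10, limma adjusted p = 0.0288). The call was lost when any 1 library was left out (limma adjusted p = 0.13 and 0.0748 for control 1 and 2 removed, 0.107 and 0.0698 for knockdown 1 and 2 removed), and the log2 change stayed between -0.29 and -0.20. The MSH6 feature overlaps FBXO11, a ubiquitin ligase subunit gene on the opposite strand, by 20786 bases, and without a stated strand setting their reads there cannot be told apart. FBXO11 was at 18.9 ± 1.07 and 19.0 ± 0.0985 FPKM (limma adjusted p = 0.906).

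MSH3, on chromosome 5 (80654652 to 80876815), was the lowest of the 6 genes, at 0.980 and 1.20 FPKM in control cells and 1.10 and 0.940 in knockdown cells. The libraries of the groups were interleaved. The log2 change was -0.05 (95% interval -0.37 to 0.28, limma adjusted p = 0.789), an interval wide enough to hold the change seen in MSH6. With its mean just past the filter of 1 FPKM, only 0.7% of tested features had a lower mean. MSH6 RNA exceeded MSH3 RNA per unit length by 18.1 and 13.9 times in control cells and by 12.8 and 15.7 times in knockdown cells, ranges that overlap.

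Of the MutL partner genes, PMS1 rose, and PMS2 and MLH3 did not pass the test. PMS1, on chromosome 2 (189784085 to 189877629), was at 13.7 and 14.2 FPKM in control cells and at 17.2 and 16.2 in knockdown cells. Both knockdown libraries were above both controls. Its mean rose from 13.9 ± 0.367 to 16.7 ± 0.693 FPKM (SD, n = 2), 1.20 times the control mean, with a log2 change of 0.25 (SE 0.053, 95% interval 0.11 to 0.39, limma adjusted p = 0.0238). This call too was lost when any 1 library was left out (limma adjusted p = 0.117 and 0.0861 for control 1 and 2 removed, 0.0927 and 0.0547 for knockdown 1 and 2 removed), with log2 changes from 0.21 to 0.29.

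PMS2, on chromosome 7 (5970925 to 6009106), was at 10.3 FPKM in both controls and at 9.43 and 9.19 in knockdown cells. The groups were apart by less than 1 FPKM, with a log2 change of -0.13 (95% interval -0.26 to 0.00, limma adjusted p = 0.104). MLH3, on chromosome 14 (75013764 to 75051532), was at 5.59 and 6.26 FPKM in control cells and at 5.05 and 4.49 in knockdown cells. Its log2 change of -0.26 was as large as that of MSH6, but its controls differed more from each other relative to their mean (95% interval -0.49 to -0.03, limma adjusted p = 0.0740).

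Summed over the 3 MutL partners the RNA level was 29.5 and 30.8 FPKM in control cells and 31.7 and 29.9 in knockdown cells, overlapping ranges, while its make-up differed. PMS1 held 46.3% and 46.1% of the sum in control cells and 54.3% in each knockdown library. PMS2 held 34.8% and 33.6% against 29.8% and 30.7%, and MLH3 18.9% and 20.4% against 15.9% and 15.0%. The groups did not overlap for any of the 3 shares, with an exact permutation p of 0.333 for each, the smallest this design allows. PMS1 exceeded PMS2 by 1.33 and 1.37 times in control cells and 1.82 and 1.77 times in knockdown cells. These shares were computed after the values of the genes were known, and they describe RNA, not the dimers that form.

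**Figure D3:**
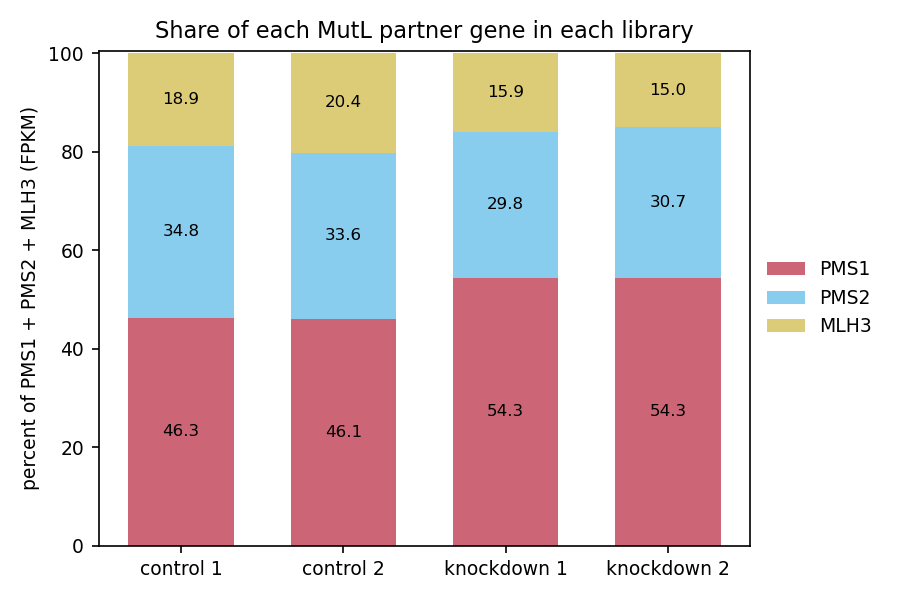
Percent of the summed FPKM of PMS1, PMS2 and MLH3 held by each gene (stacked bars, vertical axis from 0) in each of the 4 libraries. The PMS1 share is 46.1% to 46.3% in the controls and 54.3% in both knockdown libraries.

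EXO1, the exonuclease, on chromosome 1 (241847967 to 241895148), was at 5.96 and 6.64 FPKM in control cells and at 6.97 and 7.11 in knockdown cells. The knockdown libraries were above the controls by less than the gap between the controls themselves for the nearest pair. The log2 change was 0.14 (95% interval -0.05 to 0.33, limma adjusted p = 0.186).

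**Figure D4:**
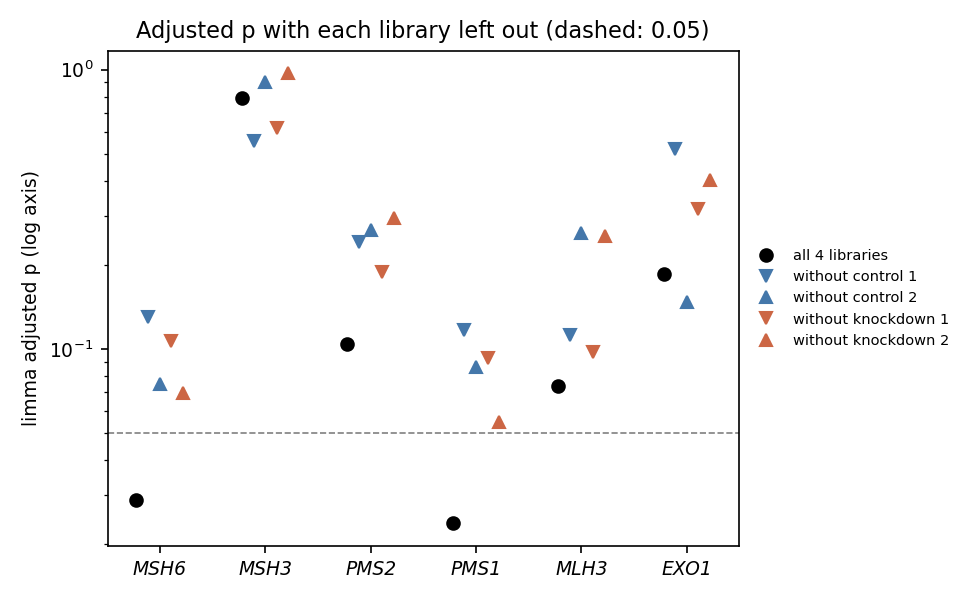
Limma adjusted p (log axis) of each mismatch repair gene with all 4 libraries (black) and with each library left out in turn (blue, a control; orange, a knockdown library). MSH6 and PMS1 are under the dashed line of 0.05 with all 4 libraries, and no gene is under it with 3.

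The order of the levels changed at the top. In the controls it was MSH6, PMS1, PMS2, EXO1, MLH3 and MSH3, and the ranges of neighbours in that order overlapped for EXO1 and MLH3. In the knockdown libraries PMS1 stood above MSH6 by 1.16 times, where in control cells MSH6 stood above PMS1 by 1.24 times, and no neighbouring ranges overlapped. MLH3 was above MSH3, the last in both orders, by 5.45 times in control cells and 4.68 times in knockdown cells.

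Neighbouring genes were examined because PMS1 and PMS2 start head to head with another gene, so that 1 stretch of DNA lies before both starts. PMS1 starts beside ORMDL1, a regulator of sphingolipid synthesis on the opposite strand, and their features overlap by 280 bases at the 5′ ends. ORMDL1 was at 29.02 and 27.6 FPKM in control cells and fell to 23.7 and 22.8 in knockdown cells, the opposite direction to PMS1. Its log2 change was -0.27 (95% interval -0.40 to -0.15, limma adjusted p = 0.0140; 0.0823, 0.0569 and 0.0602 with control 1, control 2 or knockdown 2 removed). The PMS1 to ORMDL1 ratio was 0.471 and 0.514 in control cells and 0.727 and 0.711 in knockdown cells (exact permutation p = 0.333, the smallest possible). Both knockdown libraries were above both controls for PMS1 and below both for ORMDL1. Their ratio therefore had to separate the groups and adds no further test. The 95% intervals of both log2 changes do not overlap. Reads in the shared bases cannot be assigned by strand.

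PMS2 starts 149 bases from AIMP2, a scaffold of the aminoacyl-tRNA synthetase complex, which was at 40.2 ± 0.519 and 41.2 ± 2.56 FPKM (SD, n = 2; limma adjusted p = 0.661). The neighbours of MLH3 do not share its start. EIF2B2, a translation initiation factor subunit gene, rose from 40.1 ± 1.64 to 47.2 ± 1.58 FPKM (limma adjusted p = 0.0237; 0.116, 0.0687 and 0.0876 without control replicate 1, control replicate 2 or knockdown replicate 2). ACYP1, an acylphosphatase gene, was at 26.4 ± 2.93 and 27.3 ± 1.12 FPKM (limma adjusted p = 0.683).

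**Figure D5:**
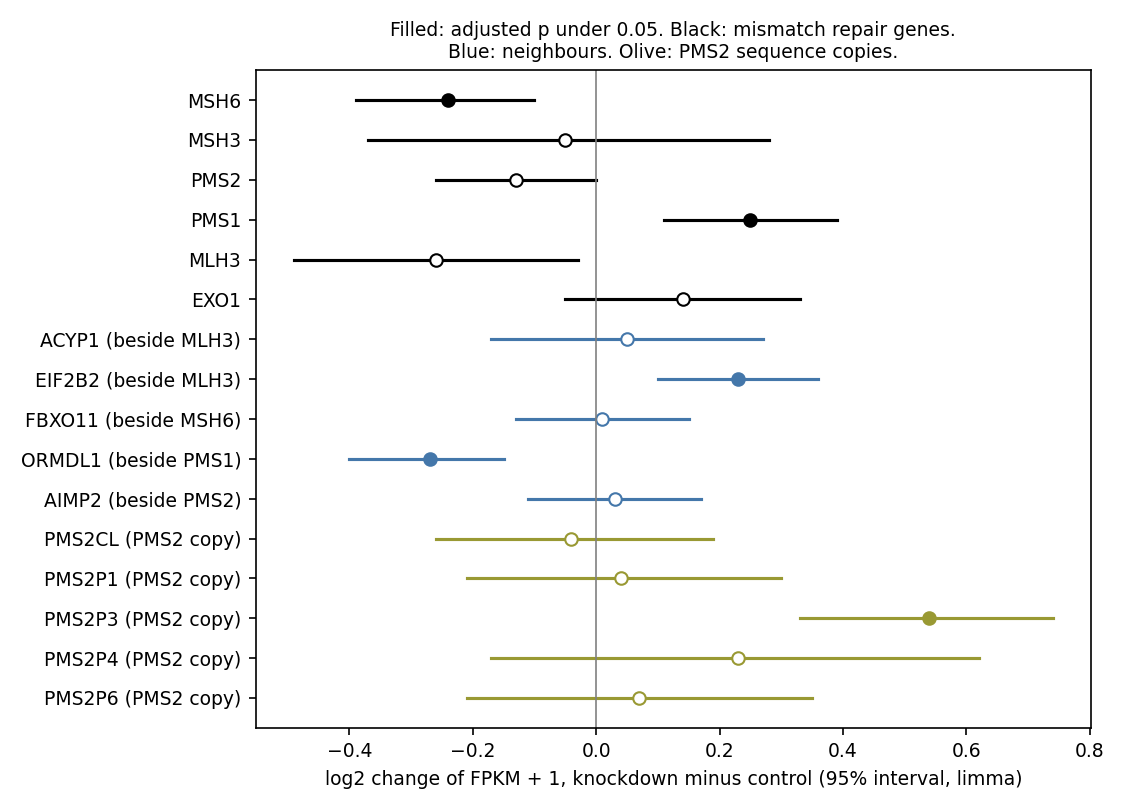
Log2 change with its 95% limma interval (horizontal axis) for the 6 mismatch repair genes (black), neighbouring genes (blue) and the 5 tested copies of PMS2 sequence (olive), filled where called. PMS1 and its head-to-head neighbour ORMDL1 lie on opposite sides of 0, and PMS2P3 has the largest change shown, at 0.54.

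Promoter sequence is printed for EXO1 and MSH6, where an E2F word was found, since E2F factors drive many genes of S phase, and for the stretch between PMS2 and AIMP2. RefSeq windows (GRCh38.p14) of 250 bases before and 50 from the annotated start on were found for all 6 genes. They were searched on both strands for 3 E2F words (TTTGGCGC, TTTCGCGC and TTTCCCGC), the cyclic AMP response element TGACGTCA, the CCAAT box and the GC box GGGCGG. An E2F word was in the windows of MSH3, MSH6 and EXO1 and in 2.79% of 27305 RefSeq windows. MSH3 held 2 that overlap on opposite strands, and those of MSH6 and EXO1 lie just after the RefSeq start. For MSH6 this start, at 47783145, is not that of the feature measured, which begins upstream at 47695530. The windows of MSH3, MSH6 and EXO1 were 71.0%, 78.0% and 65.0% G and C, and the share over all windows was not matched for this. The response element was in the windows of PMS2 and EXO1 and in 1.98% of all windows. A CCAAT box was in those of MSH6, PMS1 and PMS2 (35.7% of all windows), a GC box in 5 of the 6 (44.6% of all), and MLH3 held none of these words. A match is a description of the letters, not a bound site. Below, E2F words, response elements and CCAAT boxes are in capitals, 5′ to 3′ on the strand of the gene. For EXO1 and MSH6 the 30 bases around the E2F words are given, and for PMS2 the bases up to 120 before its start that lie in no annotated exon.
EXO1, chr1:241848199-241848228, plus strand: aggtcagccTTTCGCGCgctgtgtaggcaa
MSH6, chr2:47783139-47783168, plus strand: ccccccagaTTTCCCGCcagcaggagccgc
PMS2, chr7:6009126-6009226, minus strand: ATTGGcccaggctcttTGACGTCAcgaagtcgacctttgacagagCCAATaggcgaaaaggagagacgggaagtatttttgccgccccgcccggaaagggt

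Of the 3 genes with an E2F word, MSH6 fell, with a log2 change of -0.24, and MSH3 (-0.05) and EXO1 (0.14) did not pass the test. The differences between these 3 changes were not tested. A list of 22 S phase genes known as E2F targets, which also takes in the proliferation genes MKI67 and TOP2A, was tested in full. Of the 22, 1 rose and 7 fell, with a median log2 change of -0.11 beside -0.003 over all tested features. The 8 called are 36.4% of the list, near the 37.1% of all features. CCNE1, the G1/S cyclin E gene, rose from 23.9 ± 1.05 to 36.0 ± 0.123 FPKM (SD, n = 2; limma adjusted p = 0.00209). The licensing factor gene CDT1 fell from 38.9 ± 1.93 to 28.3 ± 1.78 FPKM (adjusted p = 0.00784; 0.0575 without control replicate 1). RRM1, of ribonucleotide reductase, fell from 30.9 ± 2.01 to 24.4 ± 0.387 FPKM (adjusted p = 0.0139), and GINS2, of the replicative helicase, from 11.4 ± 0.0239 to 8.93 ± 0.206 (adjusted p = 0.0112). The calls of RRM1 and GINS2 were each lost without 3 of the 4 libraries in turn (adjusted p up to 0.0646 and 0.0692). The number of S phase genes that fell was 0 without control replicate 1 and 3 or 4 without each of the others. The part of cell cycle in the values of EXO1 and MSH6 was not tested.

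PMS2 has many partial copies elsewhere on chromosome 7, and reads from near-identical sequence can be split between them, so its value is uncertain. Of 11 copies with a row (PMS2CL and the PMS2P series), 5 were tested. PMS2CL was at 7.61 ± 0.114 FPKM in control cells and 7.43 ± 0.845 in the knockdown (SD, n = 2; limma adjusted p = 0.774). PMS2P3 (75507747 to 75528148) was at 2.26 and 2.15 FPKM in control cells and rose to 3.60 and 3.70 in knockdown cells, 1.66 times the control mean (log2 change 0.54, SE 0.079, limma adjusted p = 0.00890; 0.0529 without control replicate 2). Its direction is opposite to the small difference in PMS2. Summed over all 11 copies the level was 17.98 and 19.3 FPKM in control cells and 20.7 and 20.9 in knockdown cells. How far reads were exchanged between PMS2 and its copies was not tested.

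The meiotic MutS genes were also read. MSH5 was at 9.08 and 6.74 FPKM in control cells and 7.70 and 6.47 in knockdown cells, overlapping ranges (limma adjusted p = 0.528). MSH4 was below the filter, at 0.116 and 0.154 FPKM in control cells and 0.0355 and 0.0267 in knockdown cells.

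Repair is completed by a clamp, its loader, a single-strand binding complex, a polymerase and a ligase, all shared with replication. Of 15 such genes, all tested, 2 rose and 6 fell (53.3% called beside 37.1% of all features), with a median log2 change of -0.04 beside -0.003. PCNA, the sliding clamp that MSH6, MSH3 and EXO1 bind, rose from 168 and 167 FPKM in control cells to 181 and 193 in knockdown cells (limma adjusted p = 0.0406). That call was lost without control replicate 1 (0.159), control replicate 2 (0.173) or knockdown replicate 2 (0.0922). POLD4, the small subunit of polymerase delta, rose from 23.8 ± 1.17 to 36.8 ± 4.20 FPKM (SD, n = 2; adjusted p = 0.00854; 0.0508 and 0.0639 without control replicate 1 or 2). RPA2, of the single-strand binding complex, fell from 54.8 ± 0.705 to 42.8 ± 0.630 FPKM (adjusted p = 0.00390), a call kept without each library in turn. The clamp loader genes RFC4 and RFC3 fell from 34.7 ± 0.158 to 28.2 ± 2.14 and from 18.2 ± 0.211 to 15.0 ± 0.187 FPKM (adjusted p = 0.0224 and 0.0125). RFC4 was lost without control replicate 1 or 2 (0.11 and 0.106), and RFC3 without either of them or knockdown replicate 2 (0.0684, 0.0785 and 0.0586). The count fell to 0 higher and 1 lower without either control.

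Where 37.1% of all tested features were called by limma, 0 of 7 accessory genes of the pathway were. An unadjusted limma p under 0.05 was found for 6592 of the 13605 tested features and for 1 of these 7 accessory genes. Among them HDAC6, a deacetylase that acts on MutS proteins, had the highest mean, at 21.2 and 20.04 FPKM in control cells and 18.7 and 14.6 in knockdown cells (limma adjusted p = 0.112; 0.0229 without knockdown replicate 1). The list's median log2 change was -0.16 beside -0.003 over all tested features.

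The other excision repair pathways were read from lists of 20 genes each. Of 20 base excision repair genes 4 rose and 4 fell (40.0% called, near the 37.1% of all features), with a median log2 change of -0.02. The thymine DNA glycosylase gene TDG, whose product acts on G:T mispairs, rose from 10.96 ± 0.213 to 15.1 ± 0.0632 FPKM (SD, n = 2; limma adjusted p = 0.00426), and the flap endonuclease gene FEN1 from 40.8 ± 1.55 to 52.0 ± 2.60 (adjusted p = 0.0103; 0.0507 and 0.0700 without control replicate 1 or 2). The glycosylase genes NEIL1 and UNG fell, from 11.3 ± 0.0123 to 7.998 ± 0.738 and from 80.5 ± 1.73 to 64.9 ± 3.34 FPKM (adjusted p = 0.0111 and 0.0109; 0.0708 and 0.0762 without control replicate 1). They were also lost without control replicate 2 (0.0712 and 0.0630). Without either control the count was 1 higher and 0 lower.

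Of 20 nucleotide excision repair genes 4 rose and 1 fell (25.0% called beside 37.1%), with a median of -0.02. DDB2, the ultraviolet damage sensor and a p53 target, rose from 19.8 ± 1.33 to 32.2 ± 0.532 FPKM (SD, n = 2), ERCC1 from 67.2 ± 4.57 to 90.6 ± 1.58 and RAD23B from 80.4 ± 1.37 to 104 ± 1.04 (limma adjusted p = 0.00229, 0.00653 and 0.00287). These 3 calls held without each library in turn. The helicase gene ERCC2 fell from 27.1 ± 0.513 to 23.7 ± 0.635 FPKM (adjusted p = 0.0331), a call lost without any 1 library (0.0686 to 0.152).

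Genes known for frameshifts at coding repeats in microsatellite-unstable colon cancer were listed for the same reason as the runs printed above. Of 13 tested of 15, 2 rose and 4 fell (46.2% called beside 37.1% of all features), with a median log2 change of 0.02. The count was 1 higher and 3 lower whichever library was left out. RNF43, a ubiquitin ligase that removes WNT receptors, fell from 44.5 and 44.6 FPKM in control cells to 18.2 in both knockdown libraries (limma adjusted p = 3.2e-04). TGFBR2, the type II TGF-beta receptor gene, fell from 12.3 ± 0.385 to 6.86 ± 0.291 FPKM (SD, n = 2; adjusted p = 0.00184), and MARCKS, a substrate of protein kinase C, from 15.1 ± 0.0851 to 8.86 ± 0.358 (adjusted p = 0.00162). The apoptosis gene BAX rose from 73.6 ± 1.22 to 98.4 ± 11.1 FPKM (adjusted p = 0.0196; 0.0936 and 0.107 without control replicate 1 or 2). FPKM does not show whether the transcripts carry a frameshift.

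Genes with the pattern most like each member were sought over the 4 libraries, by the root mean square distance of log2(FPKM + 1) values centred on the control mean. The nearest were NOC3L for PMS1, C19orf12 for MSH6, COG7 for PMS2, SLC25A4 for MLH3, FAM13A for MSH3 and FAM111B for EXO1, at distances of 0.0050, 0.0045, 0.0043, 0.014, 0.010 and 0.0080. With 4 libraries the measure sets few genes apart: between 115 (MLH3) and 933 (PMS2) genes lay within 0.05 of a member. NOC3L was at 16.1 and 16.8 FPKM in control cells and 20.1 and 19.1 in knockdown cells, levels close to those of PMS1. FAM111B was at 3.11 and 3.46 FPKM in control cells and 3.66 and 3.78 in knockdown cells.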

How the data were processed

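Libraries came from total RNA of HCT116 cells and a NEBNext Ultra kit, per the labels' protocols. The authors deposited FPKM values in 1 table per library, per the file headers. STAR, Cufflinks and GRCh38 are named in the submitters' processing notes. Versions, annotation, strand setting and filters were not given in the sources used here. Copies of 45 pseudoautosomal genes on chromosome Y were dropped from 60811 rows, and 2347 values under 1e-09 were set to 0. FPKM are not counts, so limma 3.58.1 in R 4.3.3 (lmFit, eBayes with a trend, prior of 2.79 degrees of freedom) was fitted across all tested features on log2(FPKM + 1), two-sided. The fit was tested on simulated data.

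Totals were estimated from 1-transcript genes of at least 1500 bases, where 84.0% to 87.1% of values up to 8 fragments were whole within 0.1. Over such genes the chi-square per degree of freedom was 3.84 between the controls and 3.36 between the knockdown libraries, so neither pair agreed within sampling noise. The totals are estimates, and the counting errors derived from them leave out this further spread.

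The members and lists were chosen with earlier results of these data known. Named genes are the members, neighbours within 2000 bases and at least 1 FPKM, copies of PMS2, MSH4, MSH5, PCNA, ARID1A, up to 4 called genes per list by absolute log2 change (the highest mean where none was called), and the nearest gene to each member. Markers are named as levels. Some genes that this rule names are not reported here. Alternatives covered the pseudocount, filter, scaling, trend, a replicate block and leaving out each library. No member symbol was repeated, so summing repeated rows was not needed.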

Additional observations from a re-analysis of the deposited data

How the results depend on the processing

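All values here are limma results on 2 libraries a group, and a lone library of a group was taken to vary like the other group. The labels number the libraries but do not say whether same-numbered ones were made together. Their deviations correlated at -0.01 over tested features, which cannot settle that. With the replicate block 0 of the 6 mismatch repair genes were called in place of 2 (MSH6 log2 change -0.24, adjusted p = 0.0578; PMS1 0.25, adjusted p = 0.0501), and 4126 of all features in place of 5046. With 1 library left out, 0 of the 6 genes were called in each case, and between 1900 and 3259 of all features (1900 and 1990 without control replicate 1 or 2). The log2 change then ranged from -0.29 to -0.20 for MSH6, 0.21 to 0.29 for PMS1, -0.33 to -0.19 for MLH3, -0.15 to -0.11 for PMS2, 0.07 to 0.21 for EXO1 and -0.12 to 0.03 for MSH3. MSH3 changed sign without control replicate 2 (0.03) or knockdown replicate 2 (0.01). With no filter on low values MLH3 was called (log2 change -0.26, adjusted p = 0.0391), in a fit that limma reports as unreliable because most residual variances are 0. MSH3 gave no value with a filter of at least 5 FPKM. Each other pseudocount, filter, scaling and trend setting left the direction and the side of the threshold of the 6 genes as reported, and PMS1 came closest to it with libraries scaled to TPM (adjusted p = 0.0490). MSH3 had the largest counting error of the 6 genes, 5.9% to 6.6%, and the part of depth in its spread was not tested. The cause of the lost calls was not tested.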
